A study of Homo sapiens with 15 samples.

Results

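The 10 transcripts described here, NCS1, LIX1L, MYADM, HEG1, SUMF2, CHD1, DIAPH1, PLLP, TMEM145 and CDC123, were low in HEK293T cells given LOC550643 siRNA. They are 10 of the 14884 genes with a named probe set, and they were picked by name because their level with that siRNA was below that with the non-silencing siRNA. That difference is therefore a description and carries no test. The arrays of the other siRNA groups may have had a part in the choice as well. HEK293T is a line derived from human embryonic kidney that is easily transfected. LOC550643 encodes NoBody, a microprotein that binds the decapping complex and locates to P-bodies, granules of mRNA and decay enzymes in the cytoplasm. The labels define 5 groups of 3 arrays, all of HEK293T cells on Affymetrix whole-transcript arrays. The groups received a pool of 4 siRNAs against LOC550643, siRNA against Dcp2 (the mRNA decapping enzyme), siRNA against DcpS (the scavenger enzyme that hydrolyses the cap left by decay), siRNA against GAPDH (a glycolytic enzyme) or a non-silencing siRNA without a human target. Every group, the reference included, was exposed to actinomycin D at 1 ug/mL for 4 hours, starting 48 hours after transfection. The study set Dcp2 as the related comparison and DcpS and GAPDH as unrelated ones, to judge how specific a response to LOC550643 siRNA was.

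Actinomycin D blocks transcription, so a transcript that remains after it reflects both its level before the drug and its decay. The 10 genes do not form a pathway. NCS1 is a calcium sensor with EF hands that attaches to membranes and acts on phosphatidylinositol kinase and exocytosis. MYADM and PLLP are multispan membrane proteins of the MARVEL family, which lies in cholesterol-rich membrane. HEG1 is a transmembrane mucin-like receptor that binds KRIT1, a protein of the cerebral cavernous malformation pathway, and TMEM145 is a multispan membrane protein. DIAPH1 is a formin, which nucleates and elongates actin filaments. CHD1 is a chromatin remodeler of active genes, SUMF2 an endoplasmic reticulum paralog of the enzyme that activates sulfatases, and CDC123 a chaperone that assembles the translation factor eIF2. LIX1L is the paralog of LIX1.

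Values are probe set summaries in log2 units, so a difference of 1 is a doubling. They are relative levels, since RMA gives all arrays like distributions. In a bulk sample, fewer cells that express a gene and less RNA per cell cannot be told apart. Whether replicate arrays stem from different cultures is not stated in the labels. The spread and the p-values therefore cover only these samples, whose differences may be technical. DCP2 was at 6.34 ± 0.10 with its own siRNA and 8.14 ± 0.13 with the non-silencing siRNA (SD, n = 3 each), which left 28.7% (limma adjusted p = 3.15e-06). GAPDH was left at 42.6% by its siRNA (limma adjusted p = 2.70e-05). LOC550643 and DCPS have no named probe set here, so their knockdown is not analysed here. Arrays of a group correlated at 0.991 to 0.995 over all genes and arrays of different groups at 0.985 to 0.994, and no pair was identical. Of 8 genes listed for HEK293 cells 4 were named, VIM and KRT18 at means of 8.08 and 8.72, PAX2 at 5.65 and LHX1 at 5.81. Of the 20 listed markers of leukocytes, endothelium, fibroblasts, hepatocytes and oligodendrocytes 11 were named, and their means lay between 2.39 and 5.31. The endothelial sum on the linear scale, which matters for HEG1, ran from 19.6 to 23.0 with LOC550643 siRNA and from 21.3 to 23.5 in the reference. The oligodendrocyte sum, which matters for the myelin gene PLLP, ran from 43.9 to 52.7 and from 44.0 to 51.6.

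The promoters of 4 of the genes are shown because each stands for one of the patterns described next. NCS1 was low with LOC550643 siRNA, and its other groups overlapped in the order of their means. LIX1L was also low with DcpS siRNA, and PLLP was low with every targeting siRNA. CDC123 had the pattern of NCS1 but is the only gene of the 10 with no GC box in its window. Sequences are from RefSeq on GRCh38.p14, 250 bases before to 50 after the annotated start, read along the gene. Capitals mark a match, on either strand, to any of 10 motifs searched. The GC box was searched as GGGCGG and the CCAAT box by those letters. The E box was searched as CACGTG, the cyclic AMP response element (CRE) as TGACGTCA and the TATA box as TATAAA. The ETS motif was searched as CCGGAAGT, that of YY1 as AAGATGGC and that of AP-1 as TGACTCA. The MYB motif was searched as TAACGG, and the NRF1 motif by its palindromic consensus. The windows are chr9:130172154-130172453 on the plus strand for NCS1, chr1:145957968-145958267 on the minus strand for LIX1L, chr16:57284623-57284922 on the minus strand for PLLP and chr10:12195938-12196237 on the plus strand for CDC123.
NCS1: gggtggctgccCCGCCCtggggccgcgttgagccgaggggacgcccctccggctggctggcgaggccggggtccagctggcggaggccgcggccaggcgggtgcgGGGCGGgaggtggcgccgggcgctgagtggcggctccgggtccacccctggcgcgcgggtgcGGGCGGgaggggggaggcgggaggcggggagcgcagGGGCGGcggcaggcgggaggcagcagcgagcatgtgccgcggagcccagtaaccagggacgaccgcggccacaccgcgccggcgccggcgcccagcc
LIX1L: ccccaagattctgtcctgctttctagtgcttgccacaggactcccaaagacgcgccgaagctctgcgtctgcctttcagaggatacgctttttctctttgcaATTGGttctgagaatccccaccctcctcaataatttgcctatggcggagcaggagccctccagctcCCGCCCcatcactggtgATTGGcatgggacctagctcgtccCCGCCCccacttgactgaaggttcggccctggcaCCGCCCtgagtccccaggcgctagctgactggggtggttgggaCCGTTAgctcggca
PLLP: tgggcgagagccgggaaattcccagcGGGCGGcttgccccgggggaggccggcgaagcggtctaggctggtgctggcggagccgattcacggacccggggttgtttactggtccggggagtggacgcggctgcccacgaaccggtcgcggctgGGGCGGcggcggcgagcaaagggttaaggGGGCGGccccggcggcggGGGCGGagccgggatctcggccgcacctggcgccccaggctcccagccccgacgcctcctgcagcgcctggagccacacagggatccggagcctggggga
CDC123: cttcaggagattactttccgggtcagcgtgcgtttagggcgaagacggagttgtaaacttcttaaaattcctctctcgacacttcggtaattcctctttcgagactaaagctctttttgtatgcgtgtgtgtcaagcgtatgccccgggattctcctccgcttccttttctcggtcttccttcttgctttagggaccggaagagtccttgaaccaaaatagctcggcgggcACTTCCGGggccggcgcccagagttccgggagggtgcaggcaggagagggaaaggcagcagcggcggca

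All 10 genes matched the RefSeq table, with 13 windows, since NCS1 has 2 and MYADM has 3. A GC box was in 11 of the 13 windows, in at least 1 window of 9 of the 10 genes, and in 45.0% of the 35116 windows of all genes. The windows without it were that of CDC123 and the second of NCS1. The window of CDC123 held an ETS motif instead, which 4.14% of all windows had. CCAAT was in 4 of the 13 windows (34.6% of all), among them that of LIX1L with 2 matches. SUMF2 alone held the NRF1 motif (1.24% of all) and DIAPH1 alone the E box (7.26% of all). No window held the CRE, YY1 or AP-1 letters. The share of G and C had a median of 70.7% over the 13 windows and 58.7% over all, with 82.7% for the first window of NCS1. The windows of all genes were not matched to those of the 10 genes by transcript level or by share of G and C. A match of letters is a description of the window and not a binding site.

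NCS1, the calcium sensor, had the lowest difference of all 14884 genes between LOC550643 and non-silencing siRNA. Its 3 LOC550643 arrays read 6.80, 7.05 and 7.0, and its 3 non-silencing arrays 8.47, 7.97 and 8.19. The Dcp2 arrays read 8.38, 7.96 and 7.88, the DcpS arrays 8.22, 7.90 and 8.08, and the GAPDH arrays 8.38, 8.08 and 8.29. The LOC550643 arrays lay below all 12 others, with a gap of 0.83 to the lowest of them, while the other 4 groups overlapped in the order of their means. The mean was 6.95 ± 0.13 with LOC550643 siRNA and 8.21 ± 0.25 in the reference (SD, n = 3 each), a difference of -1.26 (SE 0.15) that left 41.7%. Against Dcp2, DcpS and GAPDH siRNA the difference was -1.12, -1.11 and -1.30.

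**Figure D1:**
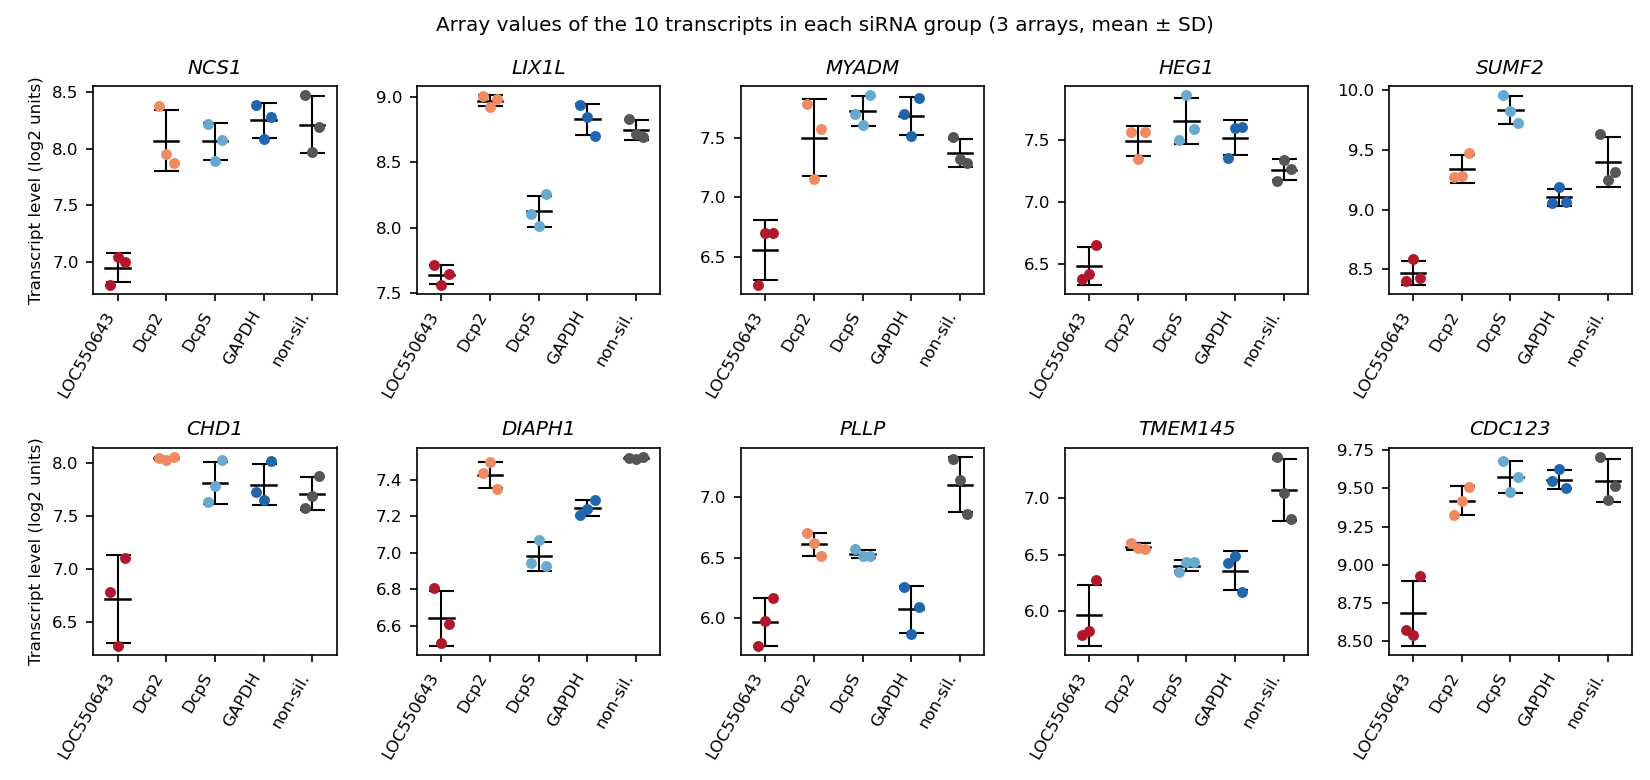
Level in log2 units (vertical axes, a separate range for each gene that does not start at 0) of the 10 transcripts in the 5 siRNA groups. Points are single arrays, bars the mean ± SD of 3. The LOC550643 arrays lie below all other arrays for 8 genes, and overlap the GAPDH arrays for PLLP and TMEM145.

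Every LOC550643 array lay below all 12 other arrays for 8 of the 10 genes, where 1.52% of all genes did so. The rule that picked the genes used the LOC550643 arrays, so nothing is read from that share. Against the non-silencing arrays alone, all 10 genes had groups that did not overlap (17.0% of all genes). Against Dcp2, DcpS and GAPDH arrays 10, 10 and 8 had groups that did not overlap (22.4%, 21.9% and 21.6% of all genes). The differences from the reference ran from -1.26 for NCS1 to -0.78 for HEG1, with a median of -0.96 beside -0.01 for all genes. In the order of all differences the members held ranks 1, 3 to 6, 8, 10 to 12 and 20 from the lowest. In all, 20 genes (0.134%) lay at or below the value of HEG1. Between the members lay MIR4748, SARS1, SERTM1 and a run from HECTD3 (-0.82) to PRXL2C (-0.78). The next gene below the last member was MKNK2, at -0.76, against -0.78 for HEG1.

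Among the other membrane proteins, MYADM read 6.26, 6.70 and 6.70 with LOC550643 siRNA and 7.51, 7.32 and 7.29 in the reference. Its Dcp2 arrays, at 7.79, 7.15 and 7.58, were the most scattered, its DcpS arrays read 7.71, 7.61 and 7.86 and its GAPDH arrays 7.70, 7.52 and 7.84. The LOC550643 arrays stood below all others by 0.45, and the other groups overlapped their neighbours. The difference from the reference was -0.82 (SE 0.15), which left 56.7%. MYADM is the only one of the 10 with 2 named probe sets. The dimmer one had the same direction but a smaller difference, at 5.11 ± 0.04 with LOC550643 siRNA and 5.48 ± 0.02 in the reference (SD, n = 3 each), and the mean of both probe sets gave -0.60.

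HEG1 read 6.38, 6.41 and 6.65 with LOC550643 siRNA. The reference arrays, at 7.17, 7.34 and 7.26, were the lowest of the other groups, below the Dcp2 (7.56, 7.35 and 7.56), DcpS (7.50, 7.86 and 7.59) and GAPDH arrays (7.35, 7.60 and 7.60). HEG1 thus had its smallest LOC550643 difference against the reference, at -0.78 (SE 0.12), and differences of -1.01, -1.17 and -1.04 against Dcp2, DcpS and GAPDH siRNA. MYADM had the same order of group means as HEG1, from LOC550643 through non-silencing, Dcp2 and GAPDH to DcpS.

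CHD1, the remodeler, was the most variable with LOC550643 siRNA, at 6.79, 6.28 and 7.10. The Dcp2 arrays agreed closely, at 8.04, 8.03 and 8.05. The DcpS arrays read 7.63, 7.78 and 8.02, the GAPDH arrays 7.72, 7.65 and 8.02, and the reference 7.57, 7.69 and 7.87. LOC550643 siRNA gave the lowest values and Dcp2 siRNA the highest. The difference from the reference was -0.99 (SE 0.17), and from Dcp2 siRNA -1.32. SDs of 0.42 and 0.01 in these groups depart far from the shared spread on which the SE rests.

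CDC123, the eIF2 chaperone, read 8.58, 8.54 and 8.93 with LOC550643 siRNA. All 12 other arrays lay between 9.33 and 9.70. The difference from the reference was -0.87 (SE 0.11), which left 54.8%, and the differences of Dcp2, DcpS and GAPDH siRNA from the reference were -0.13, 0.02 and 0.01.

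LIX1L and DIAPH1 had intermediate levels with DcpS siRNA. LIX1L read 7.72, 7.57 and 7.65 with LOC550643 siRNA and 8.10, 8.01 and 8.26 with DcpS siRNA. Its Dcp2 arrays read 9.0, 8.93 and 8.98, its GAPDH arrays 8.94, 8.85 and 8.70, and its reference arrays 8.83, 8.72 and 8.69. These 3 groups overlapped in part, and the LOC550643 and DcpS arrays lay apart from them and from each other. LOC550643 siRNA left 46.6% of the reference (difference -1.10, SE 0.09) and DcpS siRNA 65.0% (difference -0.62, SE 0.09).

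DIAPH1, the formin, read 6.81, 6.51 and 6.61 with LOC550643 siRNA, 6.94, 7.07 and 6.93 with DcpS siRNA and 7.21, 7.24 and 7.29 with GAPDH siRNA. The Dcp2 arrays followed at 7.43, 7.49 and 7.35, and the reference was highest at 7.52, 7.51 and 7.52. No neighbouring groups in this order overlapped, though the gap between the LOC550643 and DcpS arrays was 0.12. The difference of LOC550643 siRNA from the reference was -0.88 (SE 0.09) and from DcpS siRNA -0.34 (SE 0.09).

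SUMF2, the sulfatase factor paralog, went apart with DcpS siRNA in the other direction. It read 8.40, 8.58 and 8.43 with LOC550643 siRNA and 9.95, 9.83 and 9.72 with DcpS siRNA. Between them lay the GAPDH (9.05, 9.19 and 9.06), Dcp2 (9.27, 9.28 and 9.48) and reference arrays (9.63, 9.25 and 9.31). The difference of LOC550643 siRNA was -0.93 (SE 0.11) from the reference and -1.36 (SE 0.11) from DcpS siRNA, which is 38.9% of the DcpS level.

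With Dcp2, DcpS and GAPDH siRNA 6, 7 and 6 of the 10 genes did not overlap the reference (22.8%, 18.5% and 17.3% of all genes), in either direction. PLLP and TMEM145, like DIAPH1, were highest in the reference and lower with each of the 4 targeting siRNAs. For DIAPH1 the differences from the reference were -0.88, -0.09, -0.54 and -0.27 with LOC550643, Dcp2, DcpS and GAPDH siRNA (SE 0.09 each). PLLP, the myelin and epithelial MARVEL protein plasmolipin, read 7.31, 7.14 and 6.86 in the reference and 5.77, 5.98 and 6.17 with LOC550643 siRNA. Its GAPDH arrays, at 6.26, 5.87 and 6.10, overlapped the LOC550643 arrays, and its Dcp2 (6.70, 6.62 and 6.51) and DcpS arrays (6.57, 6.51 and 6.51) lay between. The value was identical on Dcp2 array 3 and DcpS arrays 2 and 3, so the SD of 0.03 with DcpS siRNA may understate the spread. The differences from the reference were -1.13, -0.49, -0.57 and -1.02 with LOC550643, Dcp2, DcpS and GAPDH siRNA (SE 0.13 each). Between LOC550643 and GAPDH siRNA PLLP differed by -0.10 (SE 0.13).

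TMEM145 read 7.37, 7.05 and 6.82 in the reference, 5.79, 5.82 and 6.27 with LOC550643 siRNA, and between 6.16 and 6.60 on the other 9 arrays. Its differences from the reference were -1.12, -0.51, -0.67 and -0.72 in the same order of siRNAs (SE 0.14 each). DcpS arrays 2 and 3 held the same TMEM145 value, 6.43. PLLP and TMEM145 moved together across the 15 arrays (Pearson r = 0.90) and in deviations from group means (r = 0.63). All comparisons with the reference share its 3 arrays, which also chose the genes, so these differences are given side by side without a test.

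**Figure D2:**
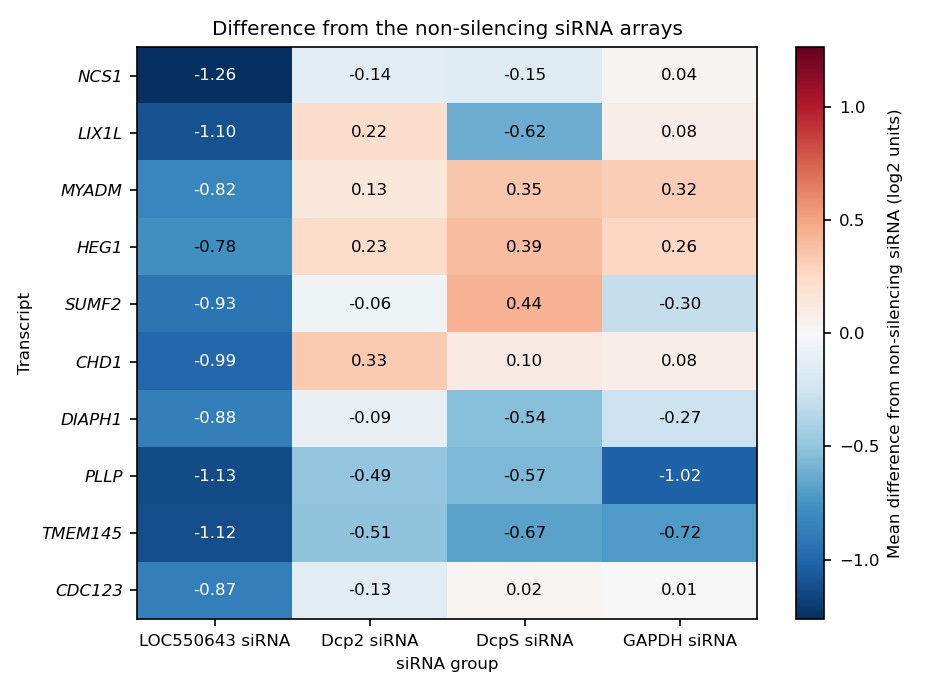
Difference of each targeting siRNA group (columns) from the non-silencing siRNA group in log2 units for the 10 transcripts (rows), as the difference of means of 3 arrays. Blue is lower than the reference and red higher. The LOC550643 column, which chose the genes, is blue throughout, from -1.26 to -0.78. DIAPH1, PLLP and TMEM145 are blue in all 4 columns.

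The 9 arrays of Dcp2, DcpS and GAPDH siRNA lie outside the comparison of LOC550643 with non-silencing siRNA by which the genes were picked. The genes were, however, chosen with earlier results of these data known. These arrays may thus have had a part in the choice, and the p-values may not be independent of it. Differences among these groups were tested with limma over all 14884 genes. In these 3 comparisons, 4 of the 10 genes, LIX1L, SUMF2, DIAPH1 and PLLP, passed an adjusted p of 0.05 at least once, where 10.2% of all genes did. All 10 lay above the median level, so the shares of all genes given here are not matched to them by level. With only genes above that level tested, 1109 (Dcp2 against DcpS), 663 (Dcp2 against GAPDH) and 1152 genes (DcpS against GAPDH) were called. Of the 10 genes 3, 1 and 4 were then called. Between Dcp2 and DcpS siRNA 3 of the 10 passed (5.64% of all genes). LIX1L was higher with Dcp2 siRNA by 0.85 (SE 0.09, limma adjusted p = 0.000101) and DIAPH1 by 0.44 (SE 0.09, limma adjusted p = 0.00704), while SUMF2 was lower by 0.49 (difference -0.49, SE 0.11, limma adjusted p = 0.0139). SUMF2 did not pass in this comparison without Dcp2 replicate 1 or 2 or DcpS replicate 1 (limma adjusted p 0.0633 to 0.0720).

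Between DcpS and GAPDH siRNA 3 of the 10 genes passed as well (5.98% of all genes). LIX1L had a difference of -0.71 (SE 0.09, limma adjusted p = 0.000224), with the DcpS arrays below all GAPDH arrays. SUMF2 was higher with DcpS siRNA by 0.73 (SE 0.11, limma adjusted p = 0.000718), a level 166% of that with GAPDH siRNA. PLLP was higher with DcpS siRNA by 0.46, just past the threshold (SE 0.13, limma adjusted p = 0.0479). DIAPH1 was lower by 0.26 on DcpS arrays that did not overlap the GAPDH arrays, and missed it (difference -0.26, limma adjusted p = 0.0997).

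Between Dcp2 and GAPDH siRNA only PLLP passed (2.79% of all genes), with a level 0.53 higher with Dcp2 siRNA (SE 0.13, limma adjusted p = 0.0347). The lower level of PLLP with GAPDH siRNA was the least secure of these calls. Against Dcp2 siRNA it was lost without Dcp2 replicate 1, 2 or 3 or GAPDH replicate 2 or 3 (limma adjusted p 0.0646 to 0.168), and against DcpS siRNA without DcpS replicate 1, 2 or 3 or GAPDH replicate 2 or 3 (limma adjusted p 0.0944 to 0.173). With the replicate number as a block the DcpS comparison gave a limma adjusted p of 0.0552, and it was also lost with only the compared groups fitted, median centring, quantile normalization again, adjustment over all probe sets and array weights (limma adjusted p 0.0504 to 0.132). The calls for LIX1L and DIAPH1, and that of SUMF2 between DcpS and GAPDH siRNA, held without each compared array in turn.

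NCS1, MYADM, HEG1, CHD1, TMEM145 and CDC123 passed in none of these comparisons, which does not show that they were equal. For NCS1 the difference between Dcp2 and DcpS siRNA was 0.01, with a 95% interval from -0.31 to 0.32. Its 3 intervals together ran from -0.50 to 0.32. For CDC123 the 3 intervals together ran from -0.39 to 0.25. For CHD1 they reached from -0.34 to 0.60.

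**Figure D3:**
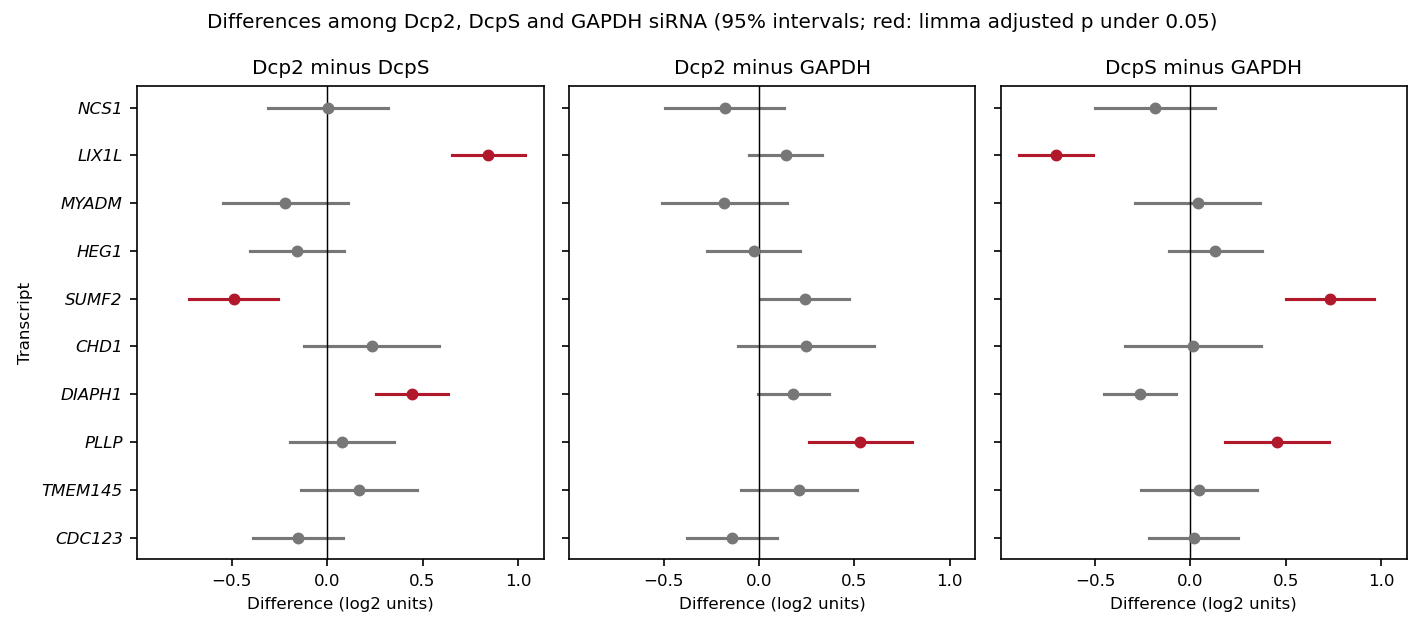
Differences in log2 units (horizontal axes) among Dcp2, DcpS and GAPDH siRNA for the 10 transcripts, with 95% intervals from the limma fit (points, difference of means of 3 arrays each). Red marks an adjusted p under 0.05: LIX1L, SUMF2 and DIAPH1 between Dcp2 and DcpS, PLLP between Dcp2 and GAPDH, and LIX1L, SUMF2 and PLLP between DcpS and GAPDH.

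Across all 15 arrays the 45 pairs of members correlated positively, at 0.36 to 0.91 with a median of 0.69. The low LOC550643 values, by which the genes were picked, enter every pair. After group means were removed the pairs ranged from -0.60 (MYADM and DIAPH1) to 0.70 (TMEM145 and CDC123), with a median of 0.16. NCS1 kept correlations of 0.66 with MYADM and 0.61 with PLLP, while LIX1L and DIAPH1, which share the intermediate DcpS level, had -0.09. Each is a description over 15 arrays with common reagents and normalization. Arrays also differed within groups along a principal component, on which SUMF2 had a correlation of 0.74 and CHD1 one of -0.70 in deviations from group means. With that score as a covariate the LOC550643 differences of SUMF2 and CHD1 were -0.86 and -1.10. The score keeps differences between groups, with all 3 Dcp2 arrays from -10.7 to -4.0, so it is not independent of the siRNA.

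The genes outside the 10 whose values over the 15 arrays were most like those of NCS1 were TIMM13 (Pearson r = 0.93), a mitochondrial import chaperone, BCKDK (0.93), the kinase of branched-chain ketoacid dehydrogenase, and GDI2 (0.92), a Rab GDP dissociation inhibitor. For LIX1L they were NABP2 (0.96), a single-strand DNA binding protein, EXOSC6 (0.95), an RNA exosome subunit, and PRDX2 (0.91), a peroxiredoxin. EXOSC6 shared the intermediate level with DcpS siRNA, with means of 7.41 for LOC550643, 7.53 for DcpS and between 8.07 and 8.17 for the other 3 groups. PRDX2 was also closest to DIAPH1 (0.92). The gene nearest to CDC123 was SARS1, the cytosolic seryl-tRNA synthetase (0.97), and the gene nearest to HEG1 was MKNK2, a kinase of eIF4E (0.95). POMGNT2 was nearest to CHD1 (0.96), MRPL11 to MYADM (0.94) and GXYLT2 to SUMF2 (0.93). NFASC was nearest to PLLP (0.87) and to TMEM145 (0.93), at a low level of 4.92 with LOC550643 siRNA and 5.17 in the reference. These are the highest of 14874 correlations for each gene, over arrays that share the same groups. The low LOC550643 values, by which the members were picked, enter each of them. Spearman rho was lower than Pearson r in every pair named. It ran from 0.64 for LIX1L with PRDX2 to 0.925 for HEG1 with MKNK2, and was 0.725 for NCS1 with GDI2.

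Relatives and partners of the genes other than DIAPH1, which are not members themselves, were examined in 7 lists with 86 of 128 genes named. With LOC550643 siRNA 6 of the 86 differed from the reference (6.98%, beside 1.57% of all genes), 5 lower and 1 higher. The lists were chosen with earlier results of these data known, and the arrays compared are those that picked the members. The share of all genes includes dim ones and is not matched by level, so nothing is read from these shares. With only genes above the median level tested, 403 genes and 11 relatives were called. The median difference of the 86 was -0.02, beside -0.01 over all genes. Of 12 named relatives and partners of the calcium sensor, HPCAL4, a sensor of the same family, fell by 0.62 (SE 0.13, limma adjusted p = 0.0251), with arrays at 5.80, 5.47 and 5.63 against 6.30, 6.32 and 6.14. The DcpS arrays of HPCAL4, at 5.90, 5.66 and 5.87, overlapped its LOC550643 arrays. The other 11 relatives and partners did not pass with LOC550643 siRNA, among them HPCA (-0.11), RIC8A (0.28) and HPCAL1 (-0.04).

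Of 21 named MARVEL proteins 2 fell, namely CMTM7 by 0.69 (SE 0.13, limma adjusted p = 0.0108) and the synaptophysin relative SYPL2 by 0.52 (SE 0.12, limma adjusted p = 0.0420). The median of this list was -0.07. OCLN, the tight junction protein occludin, was at -0.47 (limma adjusted p = 0.0601), and SYNGR2, CMTM4 and SYPL1 were at 0.12, -0.06 and 0.11. Of 8 relatives of TMEM145 and LIX1L, TMEM87A fell by 0.75 (SE 0.15, limma adjusted p = 0.0196), at rank 22 from the lowest of all genes. Its arrays read 6.98, 6.59 and 7.28 with LOC550643 siRNA and 7.46, 7.81 and 7.82 in the reference. Like LIX1L, TMEM87A was also lower with DcpS siRNA, by 0.63 (difference -0.63, limma adjusted p = 0.0298). With LOC550643 siRNA the median of this list was -0.05, with 4 genes above and 4 below the reference. WLS, GPR107, GPR180 and TMEM181 were at -0.30, 0.12, 0.40 and -0.14 with LOC550643 siRNA and did not pass. With Dcp2, DcpS and GAPDH siRNA 2, 6 and 4 of the 86 relatives differed from the reference (1.98%, 3.61% and 2.0% of all genes).

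In the pathway of HEG1, 1 of 13 named genes fell, the kinase gene MAP3K3, which acts downstream of the cavernous malformation complex, by 0.48 (SE 0.10, limma adjusted p = 0.0172). The germinal center kinases STK24, STK25 and STK26, partners of this complex, were at 0.01, -0.13 and 0.01 and did not pass. Of 9 named genes of eIF2 assembly and signalling, EIF5, the GTPase activator of eIF2, rose by 0.46 (SE 0.10, limma adjusted p = 0.0240), while ATF4, the transcription factor induced when eIF2 is phosphorylated, was at 0.08 and the eIF2 kinase EIF2AK1 at -0.01. None of 11 CHD remodelers and elongation factors or 12 sulfatases and activating enzymes passed in limma, where 2 and 0 had an unadjusted p under 0.05. Their medians were 0.06 and -0.09. CHD4 was at 0.15, CHD3, its relative in the NuRD complex, at -0.36 (limma adjusted p = 0.106), and the FACT subunits SSRP1 and SUPT16H at -0.06 and 0.06. The lysosomal sulfatases IDS and SGSH were at 0.08 and -0.07.

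Without 1 array of the 6 compared, the count of called relatives was 1 to 3 in place of 6. Of the 6 genes, TMEM87A alone passed without non-silencing replicate 1, and none passed without LOC550643 replicate 2, where the 1 gene called was another relative. The differences kept their direction in all 17 alternatives, from -0.70 to -0.54 for HPCAL4, from -0.81 to -0.60 for CMTM7 and from 0.41 to 0.53 for EIF5. With only these 6 arrays fitted, none of the 6 passed (limma adjusted p 0.0606 to 0.160).

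**Figure D4:**
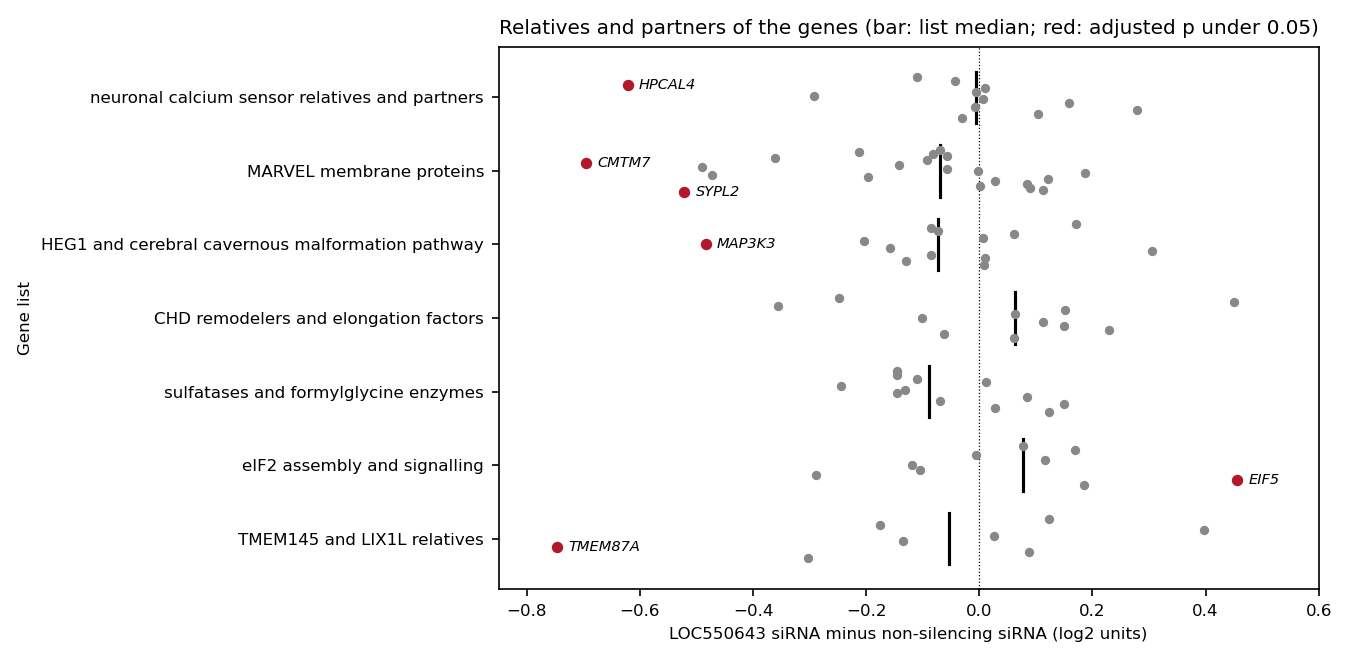
Difference between LOC550643 and non-silencing siRNA in log2 units (horizontal axis) for the 86 named relatives and partners, by list (rows). Each point is a gene, black bars are list medians, and red points passed an adjusted p of 0.05. The 6 red genes lie at -0.75 to -0.48 and, for EIF5, at 0.46.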

How the data were processed

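The authors deposited 1 table of log2 expression values for 53617 probe sets on 15 arrays. Per the submitters' processing notes, RMA in the oligo package made it. A genome build is not given in the sources used here, and the log2 base was read from the range of 1.30 to 14.01. No file gives the signal of single probes, so background and depth are not analysed here, and precision is limited by having 3 arrays a group. GEO's platform annotation gave 1 symbol to 16098 probe sets and none to 37519. Of several probe sets of a gene the one with the highest mean was kept, which left 14884 genes. limma 3.58.1 in R 4.3.3 (lmFit, eBayes) fitted 5 group means over all arrays, with 10 residual degrees of freedom before moderation, two-sided tests and Benjamini-Hochberg adjustment over all 14884 genes in each comparison, at 0.05. The code was tested on simulated data. The 10 genes, the related lists and the tests were chosen with earlier results of these data known. Genes named besides the 10 are the siRNA targets, called relatives, the 1 or 3 genes best correlated with a member, the genes around the ranks of the members, and up to 4 uncalled relatives of highest mean per list. Correlations are over 15 arrays. The labels give no batch. Alternatives covered the block, the arrays fitted, centring, normalization, filters, probe set choice, prior, weights, a within-group component and each array left out. Partners of DIAPH1 are not reported here.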

Additional observations from a re-analysis of the deposited data

How the results depend on the processing

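With LOC550643 siRNA the median difference of the 10 genes from the reference lay between -1.05 and -0.92 with each compared array left out. The direction of every difference printed for a called result was kept in all alternatives. Fitting only the compared arrays gave 53, 39, 104, 462, 273 and 394 called genes where all arrays gave 233 (LOC550643), 294 (Dcp2), 538 (DcpS), 839 (Dcp2 against DcpS), 415 (Dcp2 against GAPDH) and 890 (DcpS against GAPDH), and 44 for GAPDH against the reference in place of 297. It left 0, 0, 1 and 0 relatives called against the reference with LOC550643, Dcp2, DcpS and GAPDH siRNA, in place of 6, 2, 6 and 4. The cause was not tested. Adjusting over all probe sets gave 111, 59, 287 and 145 called genes against the reference, and 435, 194 and 512 among Dcp2, DcpS and GAPDH siRNA, with 2, 0, 3 and 2 relatives. Testing only genes above the median level gave 403 (LOC550643), 684 (Dcp2) and 461 (GAPDH) against the reference and 663 for Dcp2 against GAPDH, with 11 relatives for LOC550643 and 6 for Dcp2. Array weights gave 487 for Dcp2 against the reference and 683 against GAPDH. The within-group component as a covariate gave 124, 1004 and 497 genes for Dcp2, DcpS and GAPDH against the reference and 1413 for DcpS against GAPDH, with 0 relatives for Dcp2. That component was drawn from deviations within groups, but its scores keep differences between groups, so this setting changes those as well. PLLP, the only gene of the 10 called between Dcp2 and GAPDH siRNA, was lost, leaving 0, with only the compared arrays, with quantile normalization applied again and with adjustment over all probe sets. For none of these settings was the cause tested. With 1 array left out, called genes ran from 79 (without non-silencing replicate 1) to 202 for LOC550643, from 41 to 393 for Dcp2, from 276 to 466 for DcpS and from 139 to 239 for GAPDH against the reference, and from 445 to 720, 181 to 400 and 573 to 722 among the other siRNAs. Called relatives then ran from 1 to 3, 0 to 3, 2 to 5 and 2 to 3, and called members from 2 to 3, 0 to 1 and 2 to 3. Over all groups the replicate numbers did not pair the arrays: deviations of same-numbered arrays correlated at a median of 0.02, over 0.1 in 9 of 30 pairs, and 13 correlated best with their own number. DcpS and non-silencing siRNA were the only groups whose 3 same-numbered pairs all exceeded 0.1 (0.39, 0.11 and 0.12); there the block gave 595 called genes in place of 538 and 6 relatives as without it. With the replicate block 246 genes were called for LOC550643 (436 for Dcp2 and 313 for GAPDH against the reference), 7 relatives passed, and 3, 1 and 2 members passed among the other siRNAs. The mean of both probe sets of MYADM gave -0.62, -0.87 and -0.84 against Dcp2, DcpS and GAPDH siRNA.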

Other observations

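Some relatives of the 10 genes differed with the other siRNAs. GPR180, a relative of TMEM145, fell by 1.19 with DcpS siRNA (SE 0.11, limma adjusted p = 2.63e-05) and was at 0.40 with LOC550643 siRNA (limma adjusted p = 0.0908). Among MARVEL proteins, MARVELD1 fell by 0.57 with Dcp2 siRNA (limma adjusted p = 0.0304) and by 0.69 with GAPDH siRNA (limma adjusted p = 0.00826), OCLN fell by 0.50 with Dcp2 siRNA (limma adjusted p = 0.0398), and CMTM6 fell by 0.47 with DcpS siRNA (limma adjusted p = 0.00724). EIF5B, the GTPase that joins ribosomal subunits, fell by 0.48 with DcpS siRNA (limma adjusted p = 0.0153) and by 0.62 with GAPDH siRNA (limma adjusted p = 0.00463). These comparisons share the 3 non-silencing arrays. GPR180 with DcpS siRNA passed in all 17 alternatives run, while MARVELD1 and OCLN with Dcp2 siRNA did not pass when any Dcp2 array was left out.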
